A study of Mus musculus with 32 samples.

Results

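Hippocampal gene expression was compared between 2 inbred mouse strains, BALB/cByJ and C57BL/6J, with 4 arrays for each strain of the 32 arrays in the study. The 8 arrays were taken by the strain name in the sample titles. The pair of strains was chosen with earlier results of these data known. Both groups were untreated mice of an inbred strain, with no transgene or induced mutation named in the labels, and the labels give no age or sex. Each strain was represented by 1 pool of total hippocampal RNA from 6 mice, so that the spread between animals is not in the data. The cDNA of a pool served for 2 separate cRNA syntheses (preparations), with arrays 1 and 2 for preparation 1 and arrays 3 and 4 for preparation 2. The other 6 inbred strains of the study, also untreated and with 4 arrays each, supplied part of the error estimate and a reference level for each gene.

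BALB/c mice are known for strong anxiety-like behaviour in tests of open or elevated spaces, and C57BL/6 mice for weak anxiety-like behaviour in the same tests. The hippocampus is a forebrain region of pyramidal and granule neurons that takes part in spatial memory and, in its ventral part, in anxiety-like behaviour. The comparison addresses which hippocampal transcripts stand at different levels in 2 strains that lie far apart in behaviour. Behaviour itself was not analysed here.

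Values below are log2 of the deposited array signal, a difference is BALB/cByJ minus C57BL/6J on that scale, and a difference of 1 is 2-fold. Each strain mean rests on 2 preparations (n = 2), a number that limits the precision, and a value after ± is the SD between them. A probe set, the group of array probes designed for 1 transcript, was called where its limma p-value, adjusted by Benjamini-Hochberg over the 7453 probe sets tested, was under 0.05. These p-values measure the spread between cRNA preparations and arrays only, because each strain was 1 pool.

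The BALB/cByJ arrays stood apart from the C57BL/6J arrays in technical measures. Their mean correlation with arrays of their own strain was 0.891 to 0.911, against 0.927 to 0.948 for C57BL/6J, and array 2 of BALB/cByJ had the lowest correlation with the other strains (0.854). Control probe sets for the opposite (sense) strand of actin and Gapdh, which labelled cRNA should not bind, read 7.60 to 7.84 on all 4 BALB/cByJ arrays and 5.11 to 5.64 on all 4 C57BL/6J arrays. Within this pair the control signal and the strain cannot be told apart. It also varied inside other strains: in A/J, C3H/HeJ and SJL/J it lay between 6.95 and 7.51 in preparation 1 and between 5.27 and 5.49 in preparation 2. For each gene, the change from preparation 2 to preparation 1 in those 3 strains, less that in 2 further strains where the control signal stayed low in both preparations, is therefore given below as the control-linked shift. Across the 563 called probe sets it had a correlation of -0.011 with the strain difference, a description over probe sets that share their arrays. Low signals were also higher in BALB/cByJ: the 4969 probe sets too weak to be tested had a median difference of 0.59, and those tested had 0.02.

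Of the 7453 probe sets tested, 563 were called (7.55%), 252 of them higher in BALB/cByJ (3.38%) and 311 lower (4.17%). They belonged to 466 named genes, and 271 differed by 2-fold or more (3.64%), of which 158 were higher and 113 lower. At 4-fold or more there were 16 higher and 13 lower. The 4 arrays of one strain lay entirely above or below the 4 of the other for 1444 probe sets (19.4%; 10.5% with BALB/cByJ higher and 8.86% with it lower), and for 490 of the 563 called. The direction of the calls followed the signal level, as the plot of difference against level shows. In the weakest 25% of tested probe sets 49 were called higher and 15 lower, and in the strongest 25% 64 higher and 208 lower, with median differences of 0.23 and -0.13. With every array centred on its median the calls numbered 1157 and 11% of them were higher, against 44.8%. That scaling moved the median difference of all probe sets to -0.23. With the preparation number as a block 1995 probe sets were called (49.8% higher). Preparation 1 of both strains carried the same 2 days in the sample titles, while preparation 2 did not. With the sense-strand control signal as a covariate 61 were called, 58 of which were among the 563, and with the covariate and the block 256 were called. A call could be lost through a wider SE or a smaller difference. When the covariate joined the block, Mag went from -0.94 (SE 0.17) to -0.93 (SE 0.27), and Nr1d1 from 2.33 (SE 0.54) to 0.12 (SE 0.39). The count of calls with the covariate does not separate the 2 cases. A share of 37.0% of the lower calls had arrays 2 and 3 as the lowest BALB/cByJ arrays, against 16.1% of all tested probe sets. Without those 2 arrays 463 were called, of which 52.9% were higher. Leaving out 1 array changed the count by over 1.5 times for C57BL/6J array 2, without which 921 were called. The count at 2-fold or more was 464 without that array and 427 without BALB/cByJ array 1. Further called probe sets given in the text, outside the 86 that the naming rules below selected, were not counted here. Of those 86, 24 kept the call with the covariate, 53 kept it without each single array, and 20 kept it under every alternative run. The 20 include those of Gnb1, Casp9, Cap1, Zbtb7a, Ocel1, Aldh1a1, Acaa1b, Kif5b, Thumpd1, Glo1, Clcn3, Clcn4, Ndufa7, Erdr1 and Nefl.

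**Figure D1:**
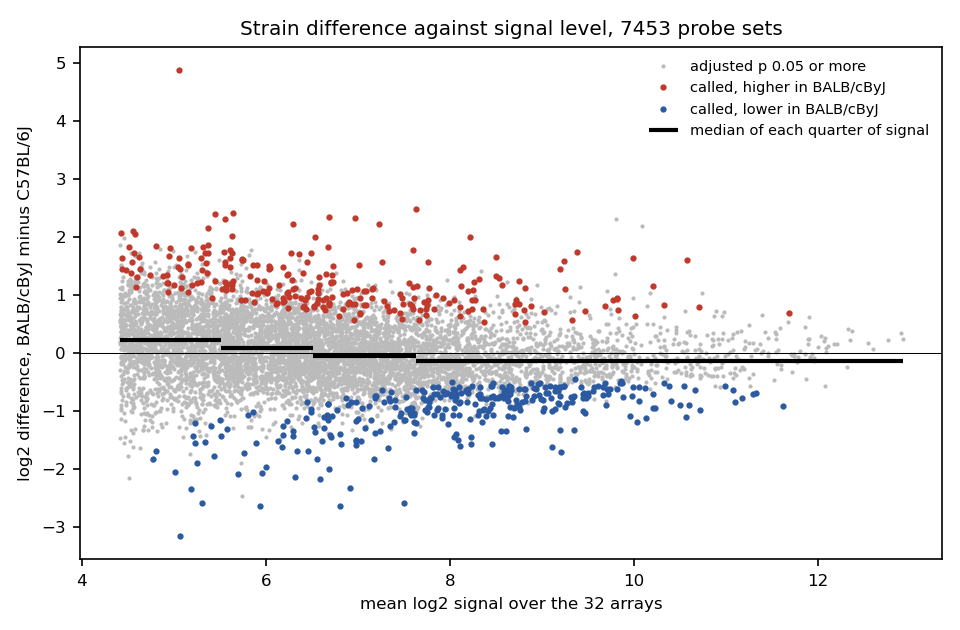
Difference between BALB/cByJ and C57BL/6J (y axis, log2) against the mean signal over the 32 arrays (x axis, log2), 1 point for each of 7453 probe sets, with called probe sets in colour and black lines for the median of each 25% of probe sets by signal. The medians run from 0.23 in the weakest group to -0.13 in the strongest, where 208 probe sets were called lower and 64 higher.

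Gnb1 was higher in BALB/cByJ on all 3 of its probe sets. It encodes a beta subunit of heterotrimeric G proteins, the membrane switches that couple receptors to channels and enzymes. On its brightest probe set (97458_at) the BALB/cByJ arrays read 10.92, 10.86, 10.63 and 10.81 and the C57BL/6J arrays 9.15, 9.12, 9.11 and 9.41. All BALB/cByJ arrays lay above all C57BL/6J arrays, with a difference of 1.61 (SE 0.14, adjusted p = 4.4e-05), or 3.04-fold. Its other probe sets differed by 1.65 and 2.48. C57BL/6J was the strain that stood away: it lay 1.58 below the mean of the other 6 strains (adjusted p = 1.2e-06), and BALB/cByJ differed from that mean by 0.03. The control-linked shift of this probe set was 0.00 to 2 decimals, and its call held under all 30 alternatives run on it.

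Casp9, the initiator caspase of the mitochondrial path of cell death, was higher in BALB/cByJ on all 4 of its probe sets. The widest difference was on probe set 100368_at, which read 6.71, 6.72, 7.51 and 7.0 on the BALB/cByJ arrays and 4.21, 4.68, 4.88 and 4.55 on the C57BL/6J arrays. The groups did not overlap, and the difference was 2.40 (SE 0.31, adjusted p = 0.00055), 2.27 in preparation 1 and 2.54 in preparation 2. The other 3 probe sets differed by 1.33, 1.35 and 1.48. BALB/cByJ lay 1.64 above the mean of the other 6 strains (adjusted p = 0.0017), but not alone: its mean was 6.99, and the highest of the other 6 strain means was 6.95. On the remaining probe sets that highest mean was 6.97, 6.84 and 6.52, against 7.09, 7.23 and 6.80 in BALB/cByJ.

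Glo1 encodes glyoxalase 1, which removes the reactive by-product of glycolysis methylglyoxal and has been studied in relation to anxiety-like behaviour in inbred mice. Its brighter probe set (93269_at) read 10.06, 9.72, 10.06 and 9.63 in BALB/cByJ and 8.53, 8.30, 8.44 and 8.40 in C57BL/6J. Every BALB/cByJ array was above every C57BL/6J array, by 1.45 in the means (SE 0.14, adjusted p = 6e-05), and the other probe set differed by 1.23 (adjusted p = 0.004). The means of the other 6 strains spread from 8.30 to 10.06, so that the pair lay within their range, with BALB/cByJ 0.67 above and C57BL/6J 0.79 below their mean (adjusted p = 0.0042 and 0.00079). The control-linked shift of Glo1 was 0.00 to 2 decimals.

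For these 3 genes, whose probe sets all moved together, the 250 bases before the annotated start are shown from the RefSeq promoter table of the assembly GRCm38.p6, which was built from C57BL/6J. BALB/cByJ sequence was not analysed here. The sequences are written 5′ to 3′ along the gene, with capitals on GC boxes (GGGCGG) and CCAAT boxes (CCAAT) of either strand, some of which overlap. Casp9 lies on the plus strand (chr4:141793362-141793611), Gnb1 on the plus strand (chr4:155491111-155491360) and Glo1 on the minus strand (chr17:30612660-30612909).
Casp9: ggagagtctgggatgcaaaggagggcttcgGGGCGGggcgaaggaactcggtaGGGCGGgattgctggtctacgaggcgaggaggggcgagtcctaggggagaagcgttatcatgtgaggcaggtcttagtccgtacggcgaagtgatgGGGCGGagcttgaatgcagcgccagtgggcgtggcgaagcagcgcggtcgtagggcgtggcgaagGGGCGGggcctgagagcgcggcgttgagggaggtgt
Gnb1: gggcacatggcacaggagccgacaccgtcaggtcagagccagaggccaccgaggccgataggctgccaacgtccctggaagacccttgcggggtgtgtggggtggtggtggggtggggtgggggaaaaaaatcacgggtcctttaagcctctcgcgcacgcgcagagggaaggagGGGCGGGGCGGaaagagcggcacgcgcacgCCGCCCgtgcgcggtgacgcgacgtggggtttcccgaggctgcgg
Glo1: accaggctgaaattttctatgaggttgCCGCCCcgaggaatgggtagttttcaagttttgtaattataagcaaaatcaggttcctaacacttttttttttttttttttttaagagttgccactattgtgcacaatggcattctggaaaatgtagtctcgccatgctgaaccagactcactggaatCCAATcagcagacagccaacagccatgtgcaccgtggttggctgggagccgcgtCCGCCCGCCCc
The Casp9 window held 4 GC boxes, the Gnb1 window 3, and the Glo1 window 3 with 1 CCAAT box. No TATA box (TATAAA) or CRE (TGACGTCA) was found in the 3 windows. Over all 32851 windows of this length on both strands, 32.7% held a GC box, 33.8% a CCAAT box, 12.4% a TATA box and 1.55% a CRE.

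Others of the 14 highest genes had varied functions. Cap1, an actin-binding protein that also binds adenylyl cyclase, read 6.85, 6.73, 6.65 and 7.08 in BALB/cByJ and 4.22, 4.85, 4.09 and 4.75 in C57BL/6J. The difference was 2.35 (SE 0.20, adjusted p = 4.2e-05), and C57BL/6J lay 2.55 below the mean of the other 6 strains (adjusted p = 4.2e-07) while BALB/cByJ lay within their range. Syt7, the calcium sensor of slow transmitter release, read 6.53, 6.54, 6.69 and 6.81 against 3.94, 2.87, 5.06 and 5.05. Its C57BL/6J arrays were lower in preparation 1 than in preparation 2, and the difference was 3.13 in preparation 1 and 1.70 in preparation 2 (mean 2.41, SE 0.45, adjusted p = 0.0065). Zbtb7a, a transcriptional repressor, differed by 2.22 (adjusted p = 0.00063) and Ocel1, a protein with an occludin domain, by 2.01 (adjusted p = 0.0002). For both, C57BL/6J lay below all 6 other strains, by 1.76 and 1.95 from their mean, though for Zbtb7a the lowest other strain mean was 4.98, against 4.69. Nbl1, a secreted antagonist of bone morphogenetic proteins, was 2.22 higher (adjusted p = 0.0012), with BALB/cByJ above and C57BL/6J below all 6 other strains.

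The widest difference of all was on a probe set of Pdxdc1, a gene for a decarboxylase-like enzyme. Probe set 97713_at read 7.85, 7.47, 8.27 and 7.93 in BALB/cByJ and 3.10, 2.91, 3.74 and 2.23 in C57BL/6J, a difference of 4.88 (SE 0.30, adjusted p = 1.2e-06), or 29.5-fold. The C57BL/6J signals were weak, so the fold is imprecise, and the difference ran from 2.05 to 5.26 under the alternatives. Probe set 94312_at of the same gene went the other way, with 1.93, 6.49, 4.95 and 4.42 in BALB/cByJ and 7.09, 7.46, 6.85 and 6.92 in C57BL/6J (-2.63, SE 0.27, adjusted p = 8.1e-05). Its remaining probe set differed by -2.46 (adjusted p = 0.06). Pdxdc1 therefore had no single direction here. The same held for 2 more genes with calls in both directions. AI506816 had 2.11 (adjusted p = 0.025, and 0.055 without BALB/cByJ array 2) on 1 probe set and -1.68 (adjusted p = 0.0028) on the other. Gstm5, a glutathione transferase, had 2.16 (adjusted p = 0.0065) on a weak probe set and -0.73 (adjusted p = 0.013) on a brighter one.

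Nr1d1 encodes REV-ERB alpha, a repressor in the circadian clock. It read 8.09, 7.98, 8.45 and 8.43 in BALB/cByJ and 5.15, 5.69, 6.06 and 6.75 in C57BL/6J, with no overlap. The difference was 2.33 (SE 0.59, adjusted p = 0.03), but the control-linked shift of Nr1d1 was 1.68, and with the sense-strand covariate the difference was 0.40 (adjusted p = 0.72). Otub1, a deubiquitinating enzyme, had the same profile on its brighter probe set: 9.22, 8.60, 9.24 and 9.14 against 6.68, 6.82, 7.56 and 7.10, a difference of 2.00 (SE 0.51, adjusted p = 0.029), a shift of 1.57, and 0.33 (adjusted p = 0.72) with the covariate. Its weaker probe set differed by 1.52 (SE 0.33, adjusted p = 0.015), with no overlap and a shift of 0.28. Only 3 called probe sets had a shift of 1 or more in the direction of the strain difference, and 0 had one the other way. The other of these had no gene name. Of the remaining genes at the top, Hspd1, the mitochondrial chaperonin, was 2.31 higher on a weak probe set (adjusted p = 0.0024) and differed by -0.79 on its brighter one (adjusted p = 0.12). Bphl, a hydrolase, was 2.05 higher on 1 probe set (adjusted p = 0.013, but 0.062 without C57BL/6J array 1 and 0.06 without array 3). Its other probe sets differed by 0.27 (adjusted p = 0.32) and -0.59 (adjusted p = 0.37).

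**Figure D2:**
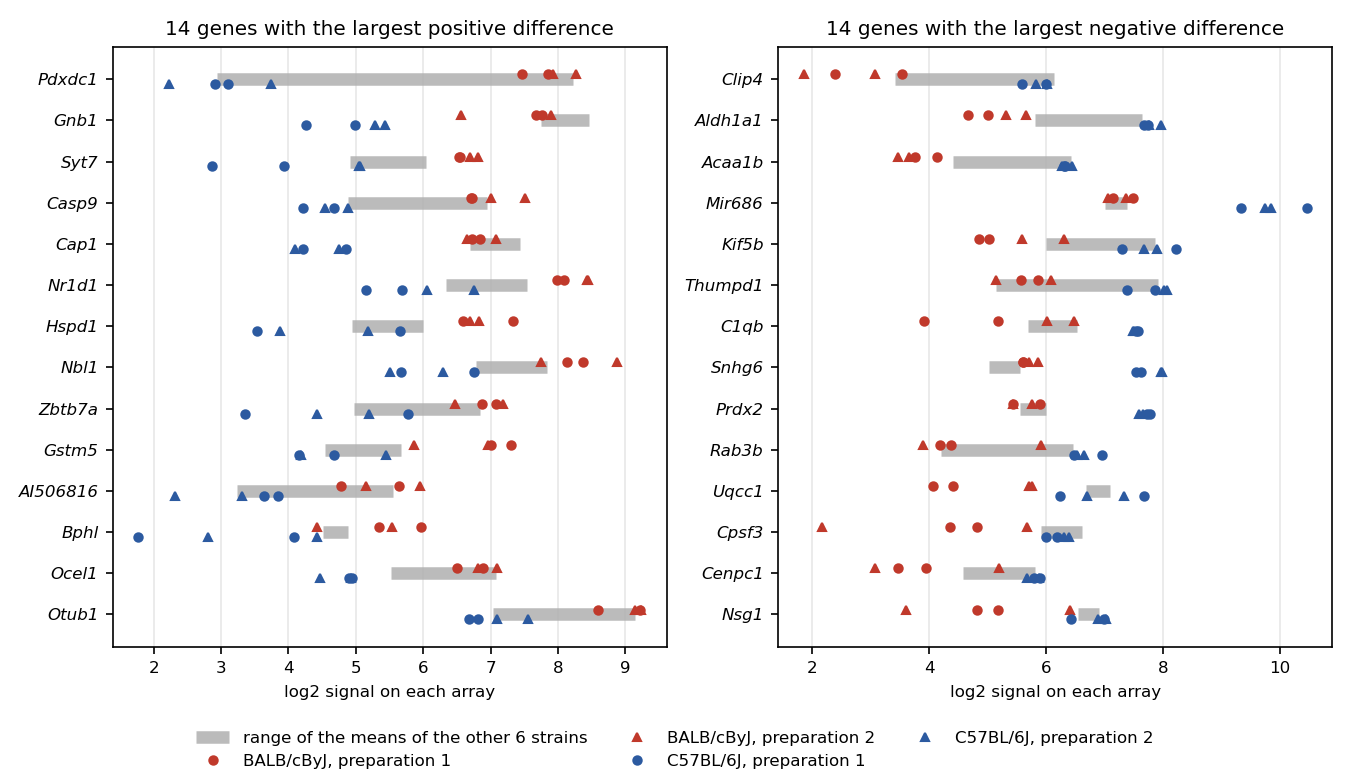
Log2 signal on each array (x axis) for the 14 genes with the largest positive and the 14 with the largest negative called difference (1 probe set each), with circles for preparation 1, triangles for preparation 2, red for BALB/cByJ, blue for C57BL/6J, and a grey bar for the range of the means of the other 6 strains. For Gnb1, Cap1 and Ocel1 the C57BL/6J points lie below the grey bar, and for Mir686, Snhg6 and Prdx2 they lie above it.

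The genes lower in BALB/cByJ included enzymes of retinoid, lipid and peroxide metabolism. Aldh1a1, which makes retinoic acid from retinaldehyde, read 5.0, 4.66, 5.32 and 5.66 in BALB/cByJ and 7.75, 7.67, 7.76 and 7.97 in C57BL/6J. No arrays overlapped, and the difference was -2.63 (SE 0.33, adjusted p = 0.00042), 6.18-fold. BALB/cByJ lay 1.75 below the mean of the other 6 strains (adjusted p = 0.0017). Acaa1b, a peroxisomal thiolase of fatty acid oxidation, read 3.75, 4.14, 3.46 and 3.66 against 6.32, 6.30, 6.28 and 6.44. The 4 C57BL/6J arrays were almost equal, and the difference was -2.59 (SE 0.38, adjusted p = 0.0014). Prdx2, a peroxiredoxin, read 5.90, 5.43, 5.43 and 5.75 against 7.77, 7.73, 7.59 and 7.66 on probe set 99608_at (-2.06, SE 0.25, adjusted p = 0.00039). Its much brighter probe set (100331_g_at) had means of 10.09 ± 0.17 and 10.11 ± 0.11 and a difference of -0.01.

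Kif5b, a heavy chain of the motor kinesin-1, read 5.02, 4.85, 5.59 and 6.31 in BALB/cByJ and 8.22, 7.30, 7.90 and 7.67 in C57BL/6J. BALB/cByJ lay below all 6 other strains, and the difference was -2.33 (SE 0.31, adjusted p = 0.00064). Clip4, a protein of the CAP-Gly linker family, read 3.54, 2.38, 1.85 and 3.07 against 5.58, 6.0, 6.02 and 5.83, the widest of the lower genes at -3.15 (SE 0.60, adjusted p = 0.0069). Its BALB/cByJ signals were weak, and the difference ran from -3.64 to -0.78 under the alternatives. With the sense-strand covariate it was -2.02 (adjusted p = 0.25). Thumpd1, which takes part in tRNA modification, differed by -2.17 (adjusted p = 0.0002), with BALB/cByJ 0.87 below and C57BL/6J 1.30 above the mean of the other strains (adjusted p = 0.018 and 0.0013). Snhg6, a noncoding host of small nucleolar RNA, read 5.61, 5.60, 5.71 and 5.86 against 7.53, 7.63, 7.97 and 7.98 (-2.08, SE 0.35, adjusted p = 0.0033). Its C57BL/6J mean was 2.42 above the other 6 strains (adjusted p = 0.00012). A probe set that the annotation assigns to Mir686, a microRNA gene, read 7.14, 7.49, 7.36 and 7.06 against 9.34, 10.46, 9.84 and 9.74 (-2.58, SE 0.23, adjusted p = 4.4e-05). C57BL/6J again stood alone, 2.69 above the other strains, and the labelling does not measure a mature microRNA.

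C1qb, a chain of complement C1q made by microglia, read 5.17, 3.91, 6.47 and 6.01 in BALB/cByJ and 7.57, 7.53, 7.50 and 7.49 in C57BL/6J. The BALB/cByJ arrays were all lower but spread widely, and the difference was -3.01 in preparation 1 and -1.25 in preparation 2 (mean -2.13, SE 0.46, adjusted p = 0.014). A second probe set differed by -0.42 (adjusted p = 0.59). Uqcc1, which helps assemble complex III of the respiratory chain, differed by -2.0 (adjusted p = 0.0057) and lay 1.94 below the other 6 strains in BALB/cByJ (adjusted p = 0.0017). The calls of 4 further genes ended when 1 BALB/cByJ array was left out. Rab3b, a GTPase of synaptic vesicles, went from -2.05 to -1.54 (adjusted p = 0.076) without array 4. Cpsf3, the nuclease of messenger RNA 3′ end formation, went from -1.96 to -1.08 (adjusted p = 0.071) without array 3. Nsg1, a neuronal endosomal protein, went from -1.83 to -1.13 (adjusted p = 0.099) without array 3, and its weaker probe set differed by 0.23 (adjusted p = 0.77). Cenpc1, a centromere protein, went from -1.89 to -1.36 (adjusted p = 0.14) without array 3 and to -1.77 (adjusted p = 0.051) without array 2.

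Comparing either strain with the average over the other 6 strains showed which member of the pair stood away. BALB/cByJ differed from that mean at 514 tested probe sets (6.9%) and C57BL/6J at 147 (1.97%). Of the 563 called probe sets, only BALB/cByJ passed this test at 259, only C57BL/6J at 83, both at 16 and neither at 205. The 2 contrasts share the other 6 strains and each shares an arm with the pair. BALB/cByJ was mostly the lower strain where it alone stood away (183 of 259), and C57BL/6J mostly the lower one where it alone did (54 of 83). Both strains departed, on opposite sides, at 12 probe sets, among them those of Pdxdc1, Glo1 and Nbl1. Erdr1, a gene of the pseudoautosomal region, was a case with both on the same side: it read 11.81, 11.94, 11.85 and 11.43 in BALB/cByJ and 10.52, 10.79, 10.52 and 10.55 in C57BL/6J. The difference was 1.16 (SE 0.14, adjusted p = 0.00036), and BALB/cByJ stood 1.87 and C57BL/6J 0.71 above the mean of the other strains, the highest of which had a mean of 11.61. With the sense-strand covariate 18.0% of the calls were BALB/cByJ alone and 55.7% C57BL/6J alone, against 46.0% and 14.7%. With the covariate and the replicate block together these shares were 55.9% and 24.6%. The share of BALB/cByJ alone was lower in preparation 1 alone and higher in preparation 2 alone, as given below. Preparation 2 of BALB/cByJ carried other days in the titles than preparation 2 of the other strains, except for an array of FVB/NJ. Strain and day therefore overlap in that preparation, and the part of the day was not tested.

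**Figure D3:**
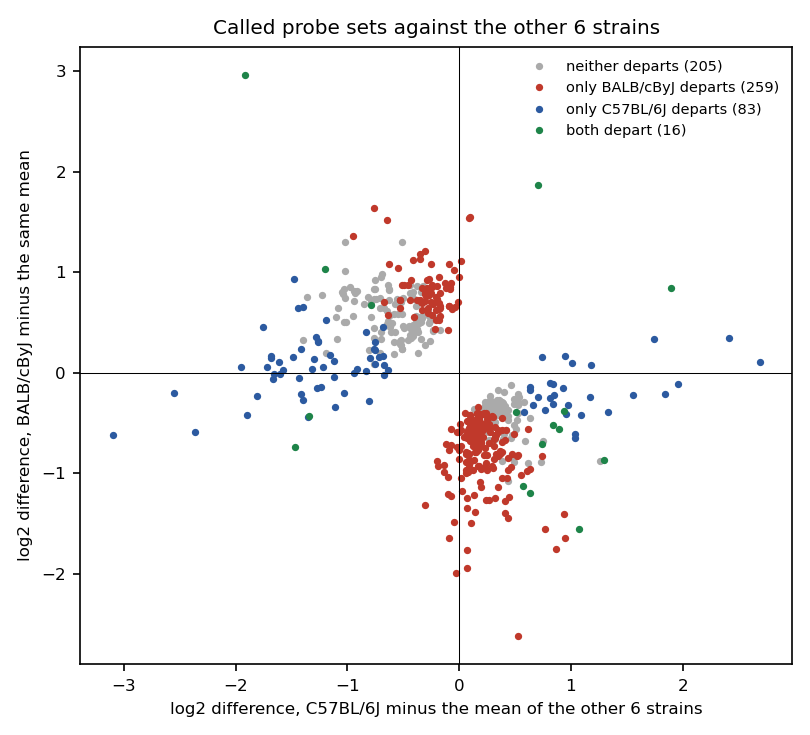
Called probe sets placed by the difference of C57BL/6J (x axis, log2) and of BALB/cByJ (y axis, log2) from the mean of the other 6 strains, coloured by which strain passed its own test. Most points where only BALB/cByJ departs lie below 0 on the y axis (183 of 259).

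The differences recurred in the second cRNA preparation of the same pools. Across all 7453 probe sets the differences in the 2 preparations correlated at r = 0.559, a description over probe sets that share arrays, and 71.8% had the same sign. Of the 100 probe sets with the widest difference in preparation 1, 92 had the same sign and 49 were 2-fold or more in preparation 2. Starting from preparation 2, 92 had the same sign and 50 were 2-fold or more in preparation 1. A difference of 2-fold or more in both preparations was found at 286 probe sets with the same sign and at 5 with opposite signs. Aldh1a1 had -2.88 and -2.38, Gnb1 1.75 and 1.46 on its brightest probe set, and Glo1 1.48 and 1.43.

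**Figure D4:**
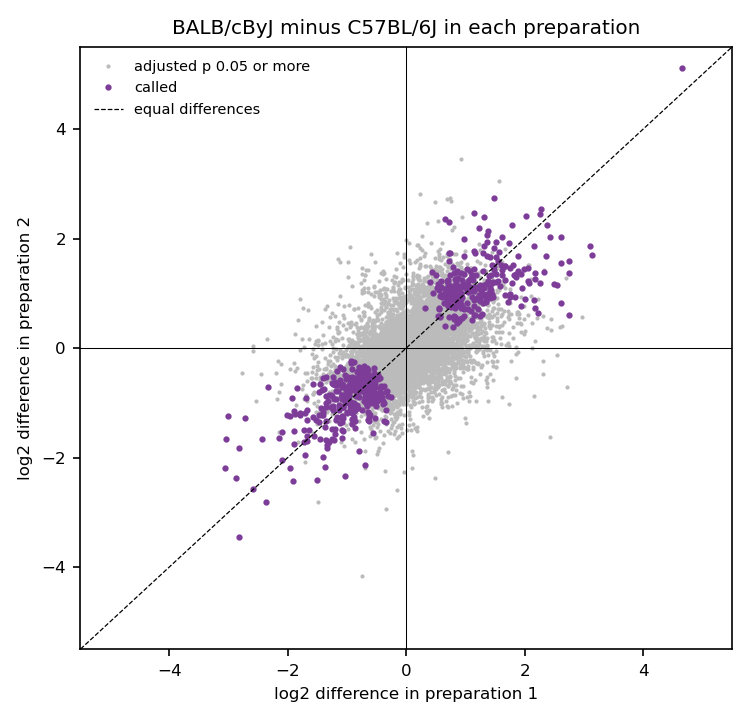
Difference between BALB/cByJ and C57BL/6J in preparation 1 (x axis, log2) and in preparation 2 (y axis, log2) for 7453 probe sets, with called probe sets in purple and a dashed line for equal differences. The point at the upper right is Pdxdc1, with 4.65 in preparation 1 and 5.11 in preparation 2.

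Genes with several probe sets gave a second reading. Of 944 such genes 143 had a call, and in 94 of those (65.7%) all tested probe sets had the same sign, against 56.8% over all 944. In 16 genes every probe set was called in the same direction, 12 higher in BALB/cByJ and 4 lower. Besides Gnb1, Casp9, Glo1 and Otub1, they included Dusp8, a phosphatase of MAP kinases (1.72 and 1.78), and Camk2a, a kinase of synaptic plasticity (0.68 and 1.10). They also included Htt, the huntingtin gene (0.67 and 0.81), and the lower genes Aldh7a1 (-1.15 and -0.91), Sec23a (-0.71 and -0.64), Selenof (-0.83 and -0.71) and Noct (-0.78 on both). Dusp8, Htt and the last 4 were picked after their values were seen.

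In the lists of GABA and glutamate genes, Gad1 was the only gene called lower. For gene lists, each gene was represented by its probe set with the highest signal, and over all 5660 genes 416 were called (7.35%), 173 higher (3.06%) and 243 lower (4.29%), with a median difference of -0.01. Of 5 GABA-A receptor subunits tested, 2 were higher. Gabra2, the alpha 2 subunit, read 7.89, 7.65, 8.53 and 7.95 in BALB/cByJ and 6.33, 6.34, 6.62 and 6.83 in C57BL/6J. The difference was 1.48 (SE 0.22, adjusted p = 0.0017), and C57BL/6J lay 1.90 below the other 6 strains (adjusted p = 1.6e-05). Gabrg3, a weakly detected gamma subunit, was 1.45 higher (adjusted p = 0.033), a call lost without C57BL/6J array 1 (0.86, adjusted p = 0.15), C57BL/6J array 4 (adjusted p = 0.062) or BALB/cByJ array 2 (adjusted p = 0.053). Of 7 genes of GABA synthesis and transport, Gad1, which makes GABA, was lower: 9.29, 9.15, 9.21 and 9.29 against 9.79, 9.92, 9.64 and 9.66 (-0.52, SE 0.14, adjusted p = 0.033, and 0.055 without BALB/cByJ array 2). The Gad1 call was lost in 13 of 30 alternatives, among them quantile and cyclic loess scaling and the 2 strains alone. Of 13 glutamate receptors and transporters 1 was called (7.69%, near the share over all genes). This was Slc1a2, the main glial glutamate transporter, 1.10 higher (adjusted p = 0.017), with 0.072 without C57BL/6J array 1 and 0.054 without BALB/cByJ array 3.

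Among 29 genes of synaptic vesicle release, 2 were higher and 1 lower, with a median difference of 0.21. Syt7 was described above. Cplx2, a complexin that binds the fusion machinery, read 9.89, 9.68, 10.50 and 10.55 in BALB/cByJ and 8.16, 8.65, 8.38 and 8.42 in C57BL/6J (1.75, SE 0.32, adjusted p = 0.006). Its control-linked shift was 0.86, and with the covariate the difference was 0.98 (adjusted p = 0.24). Syt1, the sensor of fast release, read 9.57, 9.03, 8.34 and 9.84 against 10.22, 9.50, 10.11 and 9.91. The groups overlapped, and the difference of -0.74 (adjusted p = 0.021) was -0.37 (adjusted p = 0.24) without BALB/cByJ array 3. Its adjusted p was 0.083 without BALB/cByJ array 2 and 0.11 without C57BL/6J array 1. Of 33 plasticity genes 4 were higher and 1 lower, Ppp3r1, the regulatory subunit of calcineurin (-0.71, adjusted p = 0.041). The higher ones were Camk2a (1.10, adjusted p = 0.028), Nrgn, which buffers calmodulin (0.65, adjusted p = 0.033), Prkaca, a catalytic subunit of protein kinase A (0.71, adjusted p = 0.016), and Pde1a, a calmodulin-dependent phosphodiesterase (0.75, adjusted p = 0.022, and 0.059 without C57BL/6J array 4). The 4 BALB/cByJ arrays of Nrgn read 10.49, 10.32, 10.44 and 10.38 and the C57BL/6J arrays 9.75, 9.62, 9.77 and 9.91. The calls of Camk2a, Nrgn, Prkaca and Pde1a were lost in 5, 10, 6 and 7 of 30 alternatives. The sense-strand covariate was among these for each gene, and with it Nrgn differed by 0.28 (adjusted p = 0.59).

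Of 32 ion channel genes 4 were higher and 2 lower, with a median of 0.01. Kcnj9, a subunit of the potassium channels opened by G protein beta and gamma subunits, read 7.96, 7.66, 7.54 and 7.65 in BALB/cByJ and 6.45, 6.57, 6.61 and 6.66 in C57BL/6J (1.13, SE 0.18, adjusted p = 0.0024). C57BL/6J lay 1.40 below the other 6 strains (adjusted p = 3.6e-05). The chloride-proton exchangers Clcn3 and Clcn4 moved apart. Clcn4 read 8.61, 9.03, 9.02 and 8.57 against 7.14, 6.99, 7.66 and 8.06 (1.34, adjusted p = 0.0016). Clcn3 read 8.64, 7.82, 7.72 and 8.81 against 9.56, 9.71, 9.54 and 9.46 (-1.32, adjusted p = 5e-05). On their other probe sets Clcn4 had -0.41 and Clcn3 had values from -0.46 to 0.31, none of them called. Kcnma1, the large-conductance calcium-activated potassium channel, differed by -1.18 (adjusted p = 0.0032). Of 27 genes of G proteins and their regulators, Gnb1 was higher and 3 were lower. These were Gnb2 (-0.52, adjusted p = 0.041), Gnai1 (-0.69, adjusted p = 0.038) and Gng10 (-0.59, adjusted p = 0.039). Without BALB/cByJ array 2 or C57BL/6J array 1 their adjusted p was 0.05 to 0.2. C57BL/6J array 3 ended the calls of Gnb2 and Gng10 (adjusted p = 0.05 and 0.058), BALB/cByJ array 3 that of Gng10 (0.076) and BALB/cByJ array 4 that of Gnai1 (0.074).

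Of 18 genes of monoamine and acetylcholine signalling 2 were higher, both serotonin receptors. Htr5a read 6.88, 7.34, 7.05 and 6.48 in BALB/cByJ and 5.62, 5.09, 5.65 and 5.91 in C57BL/6J (1.37, SE 0.24, adjusted p = 0.0048). Htr7 read 6.75, 7.29, 6.69 and 6.36 against 5.29, 6.16, 5.80 and 5.61 (1.06, SE 0.27, adjusted p = 0.033), a call lost without C57BL/6J array 1 (adjusted p = 0.11) and BALB/cByJ arrays 2 (0.056) or 3 (0.051). Of 23 neuropeptides and their receptors 1 was higher and 3 lower. Cckbr, the brain cholecystokinin receptor, was 0.70 higher (adjusted p = 0.041, and 0.059 to 0.072 without BALB/cByJ array 2 or 4 or C57BL/6J array 1). The neuropeptide Y receptors Npy1r (-1.55, adjusted p = 0.017) and Npy2r (-0.66, adjusted p = 0.038) and the granin Scg2 (-0.68, adjusted p = 0.049) were lower. The BALB/cByJ arrays of Npy1r read 4.89, 2.72, 2.68 and 4.93, and without arrays 2 and 3 the difference was -0.45 (adjusted p = 0.45). Without array 2 alone the adjusted p was 0.15 for Npy1r, 0.16 for Npy2r and 0.23 for Scg2. Without C57BL/6J array 1 it was 0.082 for Npy2r and 0.1 for Scg2, without BALB/cByJ array 3 it was 0.14 for Npy1r and 0.11 for Scg2, and without C57BL/6J array 3 it was 0.058 for Scg2.

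Of 18 genes of glucocorticoid and stress signalling 1 was higher and 1 lower, with a median difference of -0.45. Adcyap1r1, the receptor of the stress-linked peptide PACAP, read 7.01, 6.76, 6.89 and 7.02 in BALB/cByJ and 5.85, 5.5, 6.28 and 6.19 in C57BL/6J (0.97, SE 0.24, adjusted p = 0.025). Hsp90aa1, a chaperone that also holds the glucocorticoid receptor, read 11.57, 10.02, 9.60 and 11.11 against 11.37, 10.97, 11.53 and 11.18. Only BALB/cByJ arrays 2 and 3 were low, and the difference of -0.69 (adjusted p = 0.025) was 0.08 (adjusted p = 0.82) without them. It was -0.30 (adjusted p = 0.52) without array 2, -0.31 (adjusted p = 0.23) without array 3 and -0.59 (adjusted p = 0.08) without C57BL/6J array 1. None of 20 immediate early genes, which mark recent neuronal activity, was called, with a median difference of -0.20.

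In 3 lists of housekeeping genes the called members were all lower in BALB/cByJ. Of 35 proteasome subunits tested, 7 were lower and 0 higher, with a median difference of -0.41. Of 60 subunits of the respiratory chain and ATP synthase, 8 were lower and 0 higher (median -0.23), and of 42 heat shock proteins and chaperones 6 were lower and 0 higher (median -0.39). Of these members 26 proteasome subunits, 47 respiratory chain subunits and 17 chaperones lay in the 25% of highest signal, where 10.9% of all genes were called lower and 3.01% higher. The proteasome, which degrades ubiquitin-tagged proteins, was represented by Psmd11 of the regulatory particle, whose probe sets disagreed. Its brightest read 7.54, 7.35, 7.27 and 7.10 against 8.56, 7.62, 8.49 and 8.50 (-0.98, SE 0.17, adjusted p = 0.0049). Its 2 weaker probe sets differed by -0.62 (adjusted p = 0.3) and 1.15 (adjusted p = 0.063). Without C57BL/6J array 1 the adjusted p of the brightest was 0.081, and that of Psmd7 (-0.86, adjusted p = 0.013) was 0.25. The core subunits Psma6 (-0.86, adjusted p = 0.0065, and 0.06 without BALB/cByJ array 2) and Psmb1 (-0.61, adjusted p = 0.013) were lower too.

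In the respiratory chain, which makes the proton gradient for ATP, the 4 called members of lowest p-value included 3 of complex I. Ndufa7 read 9.25, 8.97, 9.05 and 9.45 in BALB/cByJ and 10.47, 9.92, 10.37 and 10.67 in C57BL/6J (-1.18, SE 0.19, adjusted p = 0.0026). Ndufab1 read 8.02, 7.89, 8.12 and 8.33 against 9.12, 9.64, 8.90 and 9.08 (-1.10, SE 0.17, adjusted p = 0.0024). Ndufv2 differed by -0.75 (adjusted p = 0.003) and the complex II subunit Sdhc by -0.84 (adjusted p = 0.0033). On the probe sets used for these 4 genes BALB/cByJ lay below all 6 other strains. A weaker probe set of Ndufv2 differed by 0.46 (adjusted p = 0.28), with BALB/cByJ above all 6. The chaperones Hspa4 (-0.66, adjusted p = 0.016), Hspa2 (-1.01, adjusted p = 0.02) and Dnajb6 (-0.59, adjusted p = 0.024, and 0.11 without C57BL/6J array 1) were lower. The other probe sets of Hspa4 differed by -0.41, -0.04 and 0.48 and that of Dnajb6 by -0.12, none of them called. Counts in these 3 lists moved with single arrays. Without C57BL/6J array 1 the lower members numbered 4 proteasome subunits and 3 chaperones, and without BALB/cByJ array 2 they numbered 5 respiratory chain subunits and 3 chaperones. With the sense-strand covariate they numbered 1, 2 and 0 in the order given, with medians of -0.21, -0.23 and -0.11, and with the replicate block 16, 17 and 16. Without C57BL/6J preparation 2 they numbered 0, 4 and 0. Of 24 cytosolic ribosomal proteins Rps27 was higher (0.88, adjusted p = 0.022) and Rps28 lower (-0.91, adjusted p = 0.033, and 0.06 without BALB/cByJ array 2 or 4). The other probe sets of Rps28 differed by -0.98 (adjusted p = 0.008) and 0.78 (adjusted p = 0.37).

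**Figure D5:**
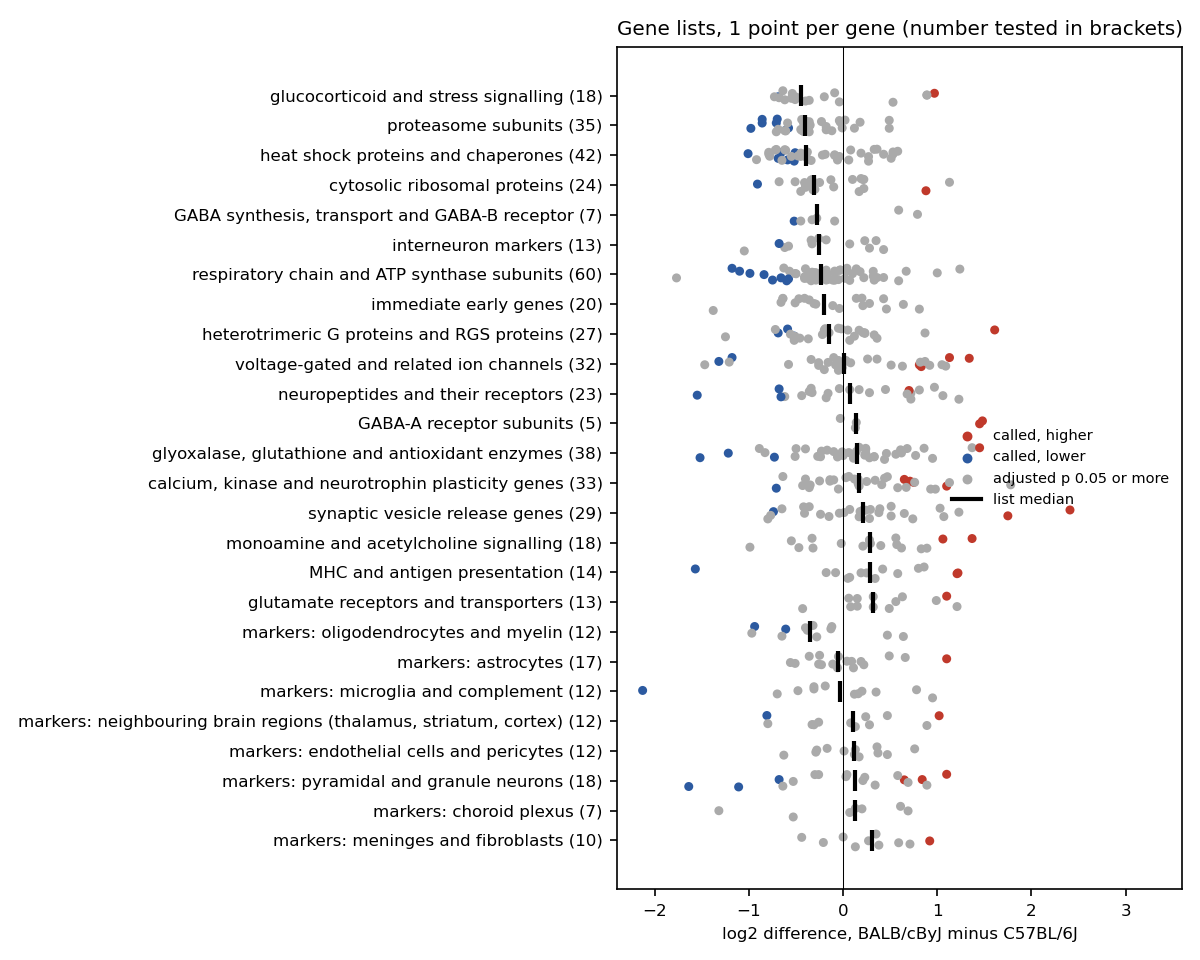
Difference between BALB/cByJ and C57BL/6J (x axis, log2) for each gene of the lists with 5 or more tested members, red where called higher, blue where called lower, grey otherwise, with a black bar at the list median. Proteasome subunits have 7 lower calls and 0 higher, the respiratory chain 8 and 0, and the chaperones 6 and 0.

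Of 38 glyoxalase, glutathione and antioxidant enzymes 1 was higher, Glo1, and 3 were lower. Prdx3, the mitochondrial peroxiredoxin, read 7.39, 6.73, 7.31 and 7.11 in BALB/cByJ and 8.57, 7.72, 8.42 and 8.71 in C57BL/6J (-1.22, SE 0.23, adjusted p = 0.0068). The glutathione transferases Mgst3 (-0.73, adjusted p = 0.018) and Gsto1 (-1.52, adjusted p = 0.024) were lower. Mgst3 had an adjusted p of 0.057 without C57BL/6J array 1, and Gsto1 of 0.053 and 0.07 without BALB/cByJ array 2 or 3. Of 14 genes of antigen presentation 2 were higher and 1 lower. B2m, the invariant chain of class I molecules, read 5.46, 5.84, 5.89 and 6.26 against 7.34, 7.22, 7.61 and 7.54 (-1.57, SE 0.27, adjusted p = 0.0043). H2-Ke6, an enzyme gene in the histocompatibility region, was 1.21 higher (adjusted p = 0.0045), and the class I gene H2-M2 1.22 higher (adjusted p = 0.028, but 0.14 without C57BL/6J array 1 and 0.092 without BALB/cByJ array 2). The class I heavy chains H2-K1 and H2-D1 differed by 0.07 and 0.34 (adjusted p = 0.84 and 0.26). The 2 strains carry different class I alleles, and these probe sets can read several class I genes.

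Markers of hippocampal neurons were strong in both pools. The summed level of 18 markers of pyramidal and granule neurons was 13.43 to 13.63 on the BALB/cByJ arrays and 13.15 to 13.49 on the C57BL/6J arrays, with 3 members higher and 3 lower. The higher ones were Camk2a, Nrgn and Neurod2 (0.84, adjusted p = 0.043). Lower were Nefl, a neurofilament subunit (6.78, 6.63, 6.44 and 6.81 against 8.73, 8.03, 8.29 and 8.19, difference -1.64, adjusted p = 0.001), Spock1 (-1.11, adjusted p = 0.025, and 0.16 without C57BL/6J array 1) and Calb1. Calb1, a calcium buffer of granule cells and some interneurons, differed by -0.68 (adjusted p = 0.03, and 0.11, 0.059 and 0.11 without BALB/cByJ array 2, BALB/cByJ array 3 or C57BL/6J array 1). It was also the 1 called member of 13 interneuron markers.

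Of 12 markers of oligodendrocytes, the myelin-forming cells, 2 were called, both lower. The summed level of the 12 was 12.19 to 12.42 in BALB/cByJ and 12.55 to 12.80 in C57BL/6J, without overlap, and the other 6 strains spread from 12.24 to 12.68. Of the 12, Mag, a myelin adhesion protein (7.22, 7.20, 7.75 and 7.31 against 8.39, 8.50, 8.14 and 8.22, difference -0.94, adjusted p = 0.0073) and Qdpr (-0.61, adjusted p = 0.049) were the called ones, and the median over the list was -0.35. Qdpr lost its call without BALB/cByJ array 2 or 4 or C57BL/6J array 1 or 4 (adjusted p = 0.057 to 0.15), and a second, weaker probe set of Mag differed by 1.08 (adjusted p = 0.091). In RNA from whole tissue, fewer cells of a type and less RNA per cell cannot be told apart. Of 17 astrocyte markers 1 was called (Slc1a2, higher), of 12 microglial markers 1 (C1qb, lower), and of 12 endothelial, 7 choroid plexus and 3 blood markers 0, with overlapping summed levels in each of these 5 lists. For the choroid plexus BALB/cByJ read 8.78 to 9.16, C57BL/6J 8.32 to 8.85 and the other 6 strains 9.05 to 9.77. Of 10 meningeal markers Col1a2 was higher (0.92, adjusted p = 0.022, and 0.052 without C57BL/6J array 1). Of 12 markers of neighbouring regions Tcf7l2, a thalamic transcription factor, was higher (1.02, adjusted p = 0.02), and Tbr1, a cortical one, lower (-0.81, adjusted p = 0.035). The call of Tbr1 ended without BALB/cByJ array 2 or 4 or C57BL/6J array 1 or 3 (adjusted p = 0.052 to 0.097). The part of tissue makeup in the other results was not tested.

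Several genes often studied with anxiety or mood did not pass the test. Bdnf, the growth factor of neuronal plasticity, read 7.74, 7.73, 7.75 and 7.69 in BALB/cByJ and 8.57, 7.99, 8.46 and 8.46 in C57BL/6J. The arrays did not overlap, and the difference was -0.64 (SE 0.21, adjusted p = 0.077). With the replicate block its adjusted p was 0.01, and against the other 6 strains BALB/cByJ had -0.68 (adjusted p = 0.025). Ntrk2, the Bdnf receptor, read 6.95, 6.38, 7.01 and 6.74 against 5.01, 4.2, 5.47 and 5.27 (1.78, SE 0.59, adjusted p = 0.077), with a control-linked shift of 1.42. The serotonin receptor Htr1a (0.29, adjusted p = 0.66), the serotonin transporter Slc6a4 (0.83, adjusted p = 0.2), Maoa (-0.47, adjusted p = 0.3), the stress receptor Crhr1 (-0.73, adjusted p = 0.3) and Fkbp5, a co-chaperone of the glucocorticoid receptor, (-0.40, adjusted p = 0.12) did not pass. Nor did Npy (-0.62, adjusted p = 0.14), Cck (0.07, adjusted p = 0.81), Penk (-0.33, adjusted p = 0.25), Grin2b (0.63, adjusted p = 0.13), Th (-0.99, adjusted p = 0.14), Rgs2 (-0.46, adjusted p = 0.49), Pam (0.72, adjusted p = 0.46), Nnt (0.77, adjusted p = 0.12) and Gsr (0.62, adjusted p = 0.18). Ttr, the choroid plexus transport protein, differed by 0.61 (adjusted p = 0.079). A p that misses the threshold does not show equal levels, and the SEs of these genes ran from 0.16 to 0.60. The candidates Nr3c1, Htr2c, Oprm1 and Cnr1 were below the signal limit and were not tested, and Nr3c2 and Crh were not analysed here.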

How the data were processed

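Hippocampal RNA from 8 inbred mouse strains, BALB/cByJ and C57BL/6J and, as the other 6, SJL/J, FVB/NJ, DBA/2J, C3H/HeJ, A/J and 129S1/SvImJ, was measured on 32 Affymetrix U74Av2 arrays. The deposited values are signal intensities that the authors computed in MAS5, as the submitters' processing notes name it (version, scaling target and detection calls not given in the sources used here). Their trimmed mean was 100.05 to 100.07 on every array. Signals under 1 were set to 1 and log2 was taken, which leaves weak signals noisy. The 2 arrays of each cRNA preparation were averaged. Probe sets in the top 60% by mean signal (7453 of 12422, at or above 21.3) were tested with limma 3.58.1 in R 4.3.3, in 1 fit of 16 preparations from 8 strains, with Benjamini-Hochberg adjustment at 0.05. Gene symbols came from the platform's annotation, updated to RefSeq (10839 probe sets matched). Of the tested probe sets 6743 had 1 symbol, 238 several and 472 none.

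Genes named were the 14 highest and 14 lowest called ones whose arrays did not overlap, a list of candidates on their brightest probe set, up to 4 called members per gene list by p-value, and genes called in both directions. Other genes named were chosen after their values were seen. The strain pair, the candidates and the gene lists were chosen with earlier results of these data known.

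The array numbers mark the cRNA preparation per the labels' design text. Deviations of same-numbered preparations from their strain means correlated at 0.219 for this pair and at 0.109 to 0.557 over the 28 pairs of strains, so the preparation number was also fitted as a block. For the control-linked shift, the 2 strains of low control signal were 129S1/SvImJ and DBA/2J. Alternatives were scaling, signal filter, offset, error model, block, and arrays left out. The sense-strand covariate, alone and with the block, cyclic loess, and leaving out BALB/cByJ arrays 2 and 3 together were chosen after seeing the data. Simulated data for this comparison had 7453 probe sets. Of 100 changes of 1 on the log2 scale 26% were recovered, and of 100 changes of 2 80%. None had the wrong sign, and 5 unchanged probe sets were called. The simulated noise was independent between probe sets and equal in all strains. It held no shared effect of array, day or control signal, so these rates may not hold for the real arrays.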

Additional observations from a re-analysis of the deposited data

Results flagged for a closer look

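The sense-strand control probe sets, which enter no comparison of genes, read 7.72 on average on the BALB/cByJ arrays and 5.11 to 5.64 on the C57BL/6J arrays. Of 210 strain groups of 4 arrays checked over the named genes, 9 had 1 array far from the other 3, and chance gives about 1 in 20. The gap to the nearest array as a share of the group's range is given for each. In BALB/cByJ these were array 3 for Gnb1 on probe set 94853_at (6.56 against 7.68 to 7.89, share 0.842), array 2 for Otub1 (8.60 against 9.14 to 9.24, share 0.844) and array 2 for Gabrg3 (5.46 against 5.15 to 5.19, share 0.871). In C57BL/6J they were array 4 for Gnb1 on probe set 97458_at (9.41 against 9.11 to 9.15, share 0.867), array 3 for Ocel1 (4.47 against 4.9 to 4.94, share 0.915) and array 1 for Htr1a (5.11 against 5.5 to 5.51, share 0.975). C57BL/6J array 2 stood away for Calb1 (7.68 against 8.17 to 8.23, share 0.891), Psmd11 (7.62 against 8.49 to 8.56, share 0.926) and Erdr1 (10.79 against 10.52 to 10.55, share 0.889).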

How the results depend on the processing

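The count of called probe sets (563, of which 271 were 2-fold or more) kept within 1.5 times under quantile and cyclic loess scaling, both signal filters, an offset of 16, array weights, a variance without trend and the 2 strains alone. It was 1157 (471 at 2-fold) with arrays centred on their median, 912 with single arrays and preparation as a random block, 2044 (564) with day as a block, and 2268 (708) in preparation 2 alone. An offset of 64 left 60 at 2-fold. The replicate block, which pairs the preparations, gave 1995 (537) and kept all 563 calls. The sense-strand covariate gave 61 (59), and with the replicate block 256. Leaving out 1 array gave 378 to 921 calls and 203 to 464 at 2-fold. Without BALB/cByJ preparation 1 there were 246 (173) and without preparation 2 335, and without C57BL/6J preparations 1 and 2 there were 157 (124) and 224 (174). The share of calls where only BALB/cByJ departed from the other strains (46.0%) was 18.0% with the covariate, 29.3% in preparation 1 alone, 75.9% in preparation 2 alone, 30.9% without BALB/cByJ preparation 1, and 38.7 to 61.9% with 1 array left out. The share where only C57BL/6J departed (14.7%) was 7.43% with median centring, 9.02% with the replicate block, 55.7% with the covariate, 24.6% with the covariate and the replicate block, 23.1% and 6.22% in preparations 1 and 2 alone, 29.3% without BALB/cByJ preparation 1, 29.9% without C57BL/6J preparation 2, and 8.66 to 20.4% with 1 array left out. Hsp90aa1 turned from -0.69 to 0.08 without BALB/cByJ arrays 2 and 3. The causes were not tested. With 1 pool per strain no alternative bears on the spread between animals, and weak signals limit precision.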

Other observations

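Nr1d1 was among the widest differences, so 10 further genes of the circadian clock and its output were read, chosen after their values were seen. Per3, a clock repressor, was higher in BALB/cByJ, at 6.67, 7.32, 6.63 and 6.57 against 5.60, 5.93, 5.5 and 5.79, a difference of 1.10. The close relative of Nr1d1, Nr1d2, differed by 0.03. Dbp (0.46), Tef (0.08), Per1 (-0.04), Cry1 (-0.33), Cry2 (0.25), Arntl (-0.08), Clock (-0.28) and Bhlhe40 (-0.45) were not called.

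Some probe sets called higher in BALB/cByJ, chosen after their values were seen, belong to genes known from other tissues. Elane, a neutrophil protease, read 6.4, 6.37, 5.91 and 6.33 against 4.78, 4.76, 5.72 and 3.66. Itgax, an integrin of dendritic cells, read 5.5, 6.61, 6.0 and 5.84 against 4.44, 4.45, 3.6 and 4.19. Vpreb1, of precursor B cells, differed by 1.72, and Zp2, an egg coat protein, by 1.45. Itgax, Vpreb1 and Zp2 lay in the weakest 25% of tested probe sets, whose median difference was 0.23, and Elane in the next 25%, whose median was 0.09.

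Genes with several probe sets gave mixed readings in some cases, chosen after their values were seen. Ank3, an ankyrin of the axon initial segment, differed by 1.66 on 1 probe set and by 0.02 on another of similar brightness. Mapt, the tau gene, differed by -0.51, -0.78 and 0.67 on its 3 probe sets.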
